A study of Bos taurus with 16 samples.

Results

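Endometrial gene expression was compared between cows with subclinical endometritis (SCE) and healthy cows. The comparison used the arrays labelled as endometrium, 4 from SCE cows and 4 from healthy cows, which were 8 of the 16 arrays of the series. The other 8 arrays held white blood cell (WBC) RNA of the same animals. All animals were multiparous Holstein cows without clinical disease, and both tissues were taken 45 to 55 days after calving. Cows were placed in the SCE or the healthy group from histology of a uterine biopsy together with a cytobrush smear, which samples cells of the uterine surface. Endometrial RNA came from transcervical biopsies near the base of the uterine horn on the side of the corpus luteum. Both groups held cows in the luteal and in the follicular phase, mostly luteal among SCE cows and in equal numbers among healthy cows. The phase of a single cow was not given, so cycle stage could not be separated from the groups. Each cow gave 1 array, and cows are named by their numbers below, SCE cows 718, 833, 836 and 846 and healthy cows 841, 850, 877 and 883.

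Subclinical endometritis is an inflammation of the uterine lining without outward signs, which lowers fertility in dairy cows. The endometrium consists of a surface and glandular epithelium, part of it ciliated, on a stroma of fibroblasts, vessels and resident immune cells. Its epithelium secretes mucus, protease inhibitors and small cationic peptides that bind or kill microbes. Neutrophils that enter the tissue carry large amounts of the calcium-binding proteins S100A8 and S100A9. In a bulk biopsy, fewer cells of a type and less RNA per cell cannot be told apart.

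Values are log2 quantile-normalized intensities, averaged over the probes of a gene name, and differences are SCE minus healthy. When single arrays are listed, the healthy cows come first in the order 841, 850, 877 and 883, followed by SCE cows 718, 833, 836 and 846. Of 26528 gene names tested with limma TREAT, which asks whether a change exceeds 1.2-fold, 0 (0%) passed an adjusted p of 0.05. Without adjustment, 59 gene names (0.222%) were higher and 42 (0.158%) lower in SCE at p of 0.05 or less. The 4 SCE arrays all lay above the 4 healthy arrays for 191 of 26361 fully measured gene names (0.725%) and all below them for 204 (0.774%). Both shares were below the 1 in 70 that group labels placed at random would give in each direction. Lack of overlap in a gene is therefore not a sign of a group difference by itself. Over all gene names 50.6% were higher in SCE, and the median difference was 0.003. Every named gene below therefore failed the adjusted test, with an adjusted p of 1, and is described by its values.

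SCE cow 833 stood apart from the other 7. Its median correlation with them was 0.937, against 0.970 to 0.976 for the others, and its median signal above background was 79, against 248 to 316. The adipocyte hormone ADIPOQ read 13.24 in cow 833 and 5.50 to 5.89 elsewhere, and the fatty acid carrier FABP4 read 18.28 against 5.57 to 6.10. The mean of 17 measured adipocyte markers was 3.48 above its average in this cow and between 0.40 and 0.62 below it in the other 7. The leading genes below were picked for no overlap and an unadjusted p of 0.05 or less. Of the 12 with the largest higher values, SCE cow 846 was nearest to the healthy arrays in 7 and farthest in 0. In the 9 genes with the largest lower values it was nearest in 2, fewer than cow 836 with 3, and over all 191 higher genes without overlap it was nearest in 36.1%, close to cow 718 with 33.5%. Many results are therefore also given without cow 833 or 846, but not all. Among genes given below without such a value, SLPI went from 1.08 to 0.76 without cow 833. CRIP1 went from 0.79 to 0.58 and TCF21 from 1.45 to 1.12 without that cow, whereas WNT2B rose from 0.80 to 0.99. TAP went from 2.53 to 3.29 without cow 846. The uterine stromal regulator HOXA10 was detected on all 8 arrays, from 10.39 in cow 833 to 15.38 in healthy cow 877, and the epithelial trafficking protein RAB25 from 10.22 to 11.87.

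**Figure D1:**
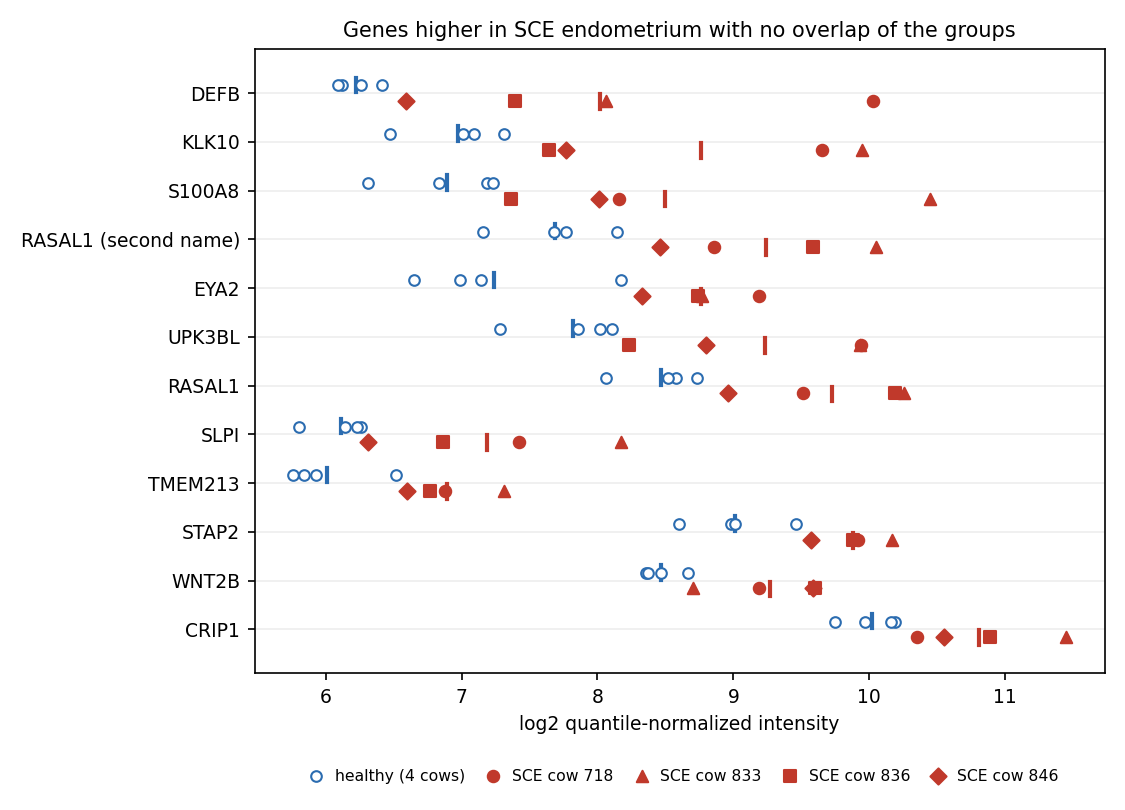
Log2 quantile-normalized intensity (horizontal axis) of 12 gene names, 1 per row, among which RASAL1 counts under both of its names. They have the largest positive differences among gene symbols with no overlap and an unadjusted TREAT p of 0.05 or less. Open circles are the 4 healthy cows, filled symbols the SCE cows by number, and short vertical lines the group means. By this choice the SCE symbols lie to the right of the circles in every row. Cow 846 is the nearest to the circles in 7 rows.

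The 12 leading genes that were higher in SCE without overlap of the groups included secreted peptides and proteases, membrane proteins and signalling proteins, with differences from 0.79 to 1.8. They were picked for no overlap and an unadjusted TREAT p of 0.05 or less, which fixes the permutation p at 0.029. Their p-values, here and below, are therefore not evidence apart from the picking. KLK10, a secreted kallikrein-related peptidase, read 7.31, 7.09, 6.47 and 7.01 in healthy and 9.65, 9.95, 7.64 and 7.77 in SCE endometrium. SCE cows 718 and 833 were well above the other SCE cows, and the difference was 1.78 ± 0.55 (SE, n = 4 per group, unadjusted limma TREAT p = 0.014, exact permutation p = 0.029, the smallest that 4 cows per group allow). Without cow 833 it was 1.38, and without cow 846 it was 2.11. EYA2, a transcriptional coactivator with phosphatase activity, read 8.17, 6.99, 6.65 and 7.14 against 9.19, 8.77, 8.74 and 8.33. Its 4 SCE values lay close together, and only healthy cow 841 came near them. The EYA2 difference of 1.52 ± 0.33 (unadjusted limma TREAT p = 0.0026, exact permutation p = 0.029) was 1.52 without cow 833 and 1.66 without cow 846.

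RASAL1, a GTPase-activating protein that switches off Ras, was measured by 2 probes under different names. The probe under its symbol read 8.06, 8.58, 8.52 and 8.73 in healthy and 9.51, 10.26, 10.19 and 8.96 in SCE cows, a difference of 1.26 ± 0.30 (unadjusted limma TREAT p = 0.0057, exact permutation p = 0.029). The probe under the transcript ENSBTAT00000029524, which RefSeq pairs with RASAL1, differed by 1.55 ± 0.36. With both probes the SCE and healthy values were separate, and cow 846 lay nearest to the healthy cows. UPK3BL, a uroplakin-like membrane protein, differed by 1.41 ± 0.41, the signalling adaptor STAP2 by 0.87 ± 0.20 and the LIM-domain protein CRIP1 by 0.79 ± 0.24. TMEM213, a small membrane protein, read 5.76 to 6.52 in healthy cows, of which 1 was well above background, and 6.60 to 7.31 in SCE cows. WNT2B, a secreted WNT ligand, read 8.36, 8.37, 8.67 and 8.47 against 9.19, 8.70, 9.60 and 9.59. Cow 833 was the lowest SCE cow for WNT2B, unlike for most genes in this group. Further genes with smaller differences, without overlap and past the unadjusted test, included the cell cycle inhibitor CDKN2D (0.73 ± 0.20), the peroxisomal fatty acid enzyme PHYH (0.60 ± 0.16) and the dehydrogenase DHRS7 (0.62 ± 0.17).

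Antimicrobial and epithelial defence genes were mostly higher in SCE endometrium. Of 24 measured genes other than complement, LTF, SAA3 and TFF3, the SCE mean lay above the healthy mean for 19 and below it for 5, and the median difference was 0.50. Unadjusted, 5 of the 24 passed in the higher direction (PI3, TAP, WFDC2, DEFB and SLPI), beside 0.222% of all gene names. The list was written with earlier results of these data known, so this comparison is no test of it. The beta-defensin DEFB, a microbe-killing peptide, read 6.12, 6.41, 6.09 and 6.26 in healthy and 10.03, 8.06, 7.39 and 6.59 in SCE cows. The healthy values spanned a narrow range just above background, whereas the SCE values were spread from cow 718 at the top down to cow 846. The difference was 1.8 ± 0.64, which was 1.78 without cow 833 and 1.12 without cow 718. Tracheal antimicrobial peptide TAP, a related beta-defensin, read 6.50, 6.10, 7.13 and 6.36 against 11.81, 9.34, 8.28 and 6.76. Its order of SCE cows was the same, and cow 846 lay within the healthy range. The TAP difference of 2.53 ± 0.93 was 1.61 without cow 718. Beta-defensin genes of cattle are close copies of one another, so a probe may read more than 1 of them.

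The probes of SLPI and DEFB are shown because the size of the difference depended on the probe. Each line gives the first 30 of 60 bases on the array, 5′ to 3′, in lower case. The places are those of the array design on HGSC Btau_3.1, and no annotation of exons or introns for this build was used here.
SLPI, chr13:74356249-74357056, plus strand, difference 0.37: agattcaacctttccaggtcaaatacatta
SLPI, chr13:74377097-74377156, minus strand, difference 2.06: gcagaagaagccaacaaatgtctgttgact
SLPI, chr13:74357174-74357233, plus strand, difference 0.81: cagcacccagtgtgtagcttggcacacgac
DEFB, chr27:7132787-7132846, minus strand, difference 1.49: ctctacaacaggatcgaaggcacctgctac
DEFB, chr27:7132698-7132757, minus strand, difference 2.10: ctcaggagccacgtggagtatttgtaacca

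SLPI, an inhibitor of neutrophil elastase, read 6.26, 5.80, 6.14 and 6.23 in healthy and 7.42, 8.17, 6.86 and 6.31 in SCE cows over these 3 probes. In this average the groups did not overlap, but cow 846 exceeded the highest healthy cow by a small margin. The averaged difference was 1.08 ± 0.36 (unadjusted limma TREAT p = 0.029, exact permutation p = 0.029). No single probe separated the groups. On the probe with a difference of 2.06, cow 846 read 6.12, below the highest healthy value of 6.36. On the probe with 0.81, cows 836 and 846 read 6.19 and 6.21, below healthy cow 883 at 6.44. On the probe with 0.37, cow 836 and the highest healthy cow both read 6.59. The probe with the largest difference lay at a separate place and on the opposite strand from the other two. The related inhibitor PI3 (elafin) read 8.55, 7.83, 7.96 and 9.28 against 13.32, 13.76, 12.03 and 8.31. SCE cows 718, 833 and 836 were far above all healthy cows, whereas cow 846 lay in the healthy range, so that the difference was 3.45 ± 1.1 with all cows and 4.63 without cow 846. WFDC2, a secreted whey acidic protein of the same family, read 9.77, 9.13, 9.35 and 11.90 against 12.50, 11.19, 13.53 and 11.16. Healthy cow 883 was the single healthy value in the SCE range, and the difference was 2.06 ± 0.73. DMBT1, a mucosal receptor that binds bacteria, and BPIFB1, a secreted lipid-binding protein of mucosal epithelia, differed by 2.42 ± 1.2 and 2.19 ± 1.17 with overlap, or 1.61 without cow 833 and 1.35 without cow 836, respectively. Without cow 833 the list had 16 higher and 8 lower members, a median of 0.32 and 2 members past the unadjusted test, and without cow 846 the counts were 20, 4 and 6 with a median of 0.49.

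Mucosal secretion genes were higher in 16 of 17 measured cases, with a median difference of 0.54. AGR2, an endoplasmic reticulum protein needed for mucin folding, read 8.05, 7.86, 6.0 and 6.62 in healthy and 8.81, 10.82, 8.29 and 7.67 in SCE cows. Cow 846 overlapped the healthy range for AGR2, and the difference of 1.76 ± 0.72 was 1.12 without cow 833. FCGBP, a mucin-like protein of mucus, had no overlap but a small difference of 0.27 ± 0.12. SPDEF, a transcription factor of secretory cells, differed by 1.22 ± 0.67, and PIGR, the receptor that carries polymeric immunoglobulin across epithelia, by 0.69, or 0.22 without cow 833. Without cow 833 the list had 15 higher members and a median of 0.43, and without cow 846 it had 16 and 0.77.

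Most marker genes of the epithelium ran in the same direction as these lists. Of 18 markers of uterine epithelium 14 were higher in SCE (median 0.41), and without cow 833 all 18 were, at the same median of 0.41. Without healthy cow 877, which read lowest, 10 were higher and 8 lower and the median was 0.16. RAB25 differed by 0.83 ± 0.29 and the keratin KRT18 by 0.93 ± 0.71, the latter 0.42 without healthy cow 877. With all cows, the 4 markers with a negative difference included EPCAM (-0.28 ± 1.12) and CDH1 (-0.01 ± 0.41). The mean deviation of the list ranged widely within each group, from 1.03 below to 0.41 above the average over all arrays in healthy cows and from 0.21 below to 0.66 above it in SCE cows. Of 19 ciliated cell markers 18 were higher with a median of 0.29, which was 0.55 without cow 833 and 0.12 without cow 846. CCDC146, a centriole and axoneme protein, read 6.79, 7.59, 6.98 and 7.39 against 7.31, 8.60, 8.02 and 8.31. The part of epithelial content in the differences of the defence and mucosal genes was not tested.

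**Figure D2:**
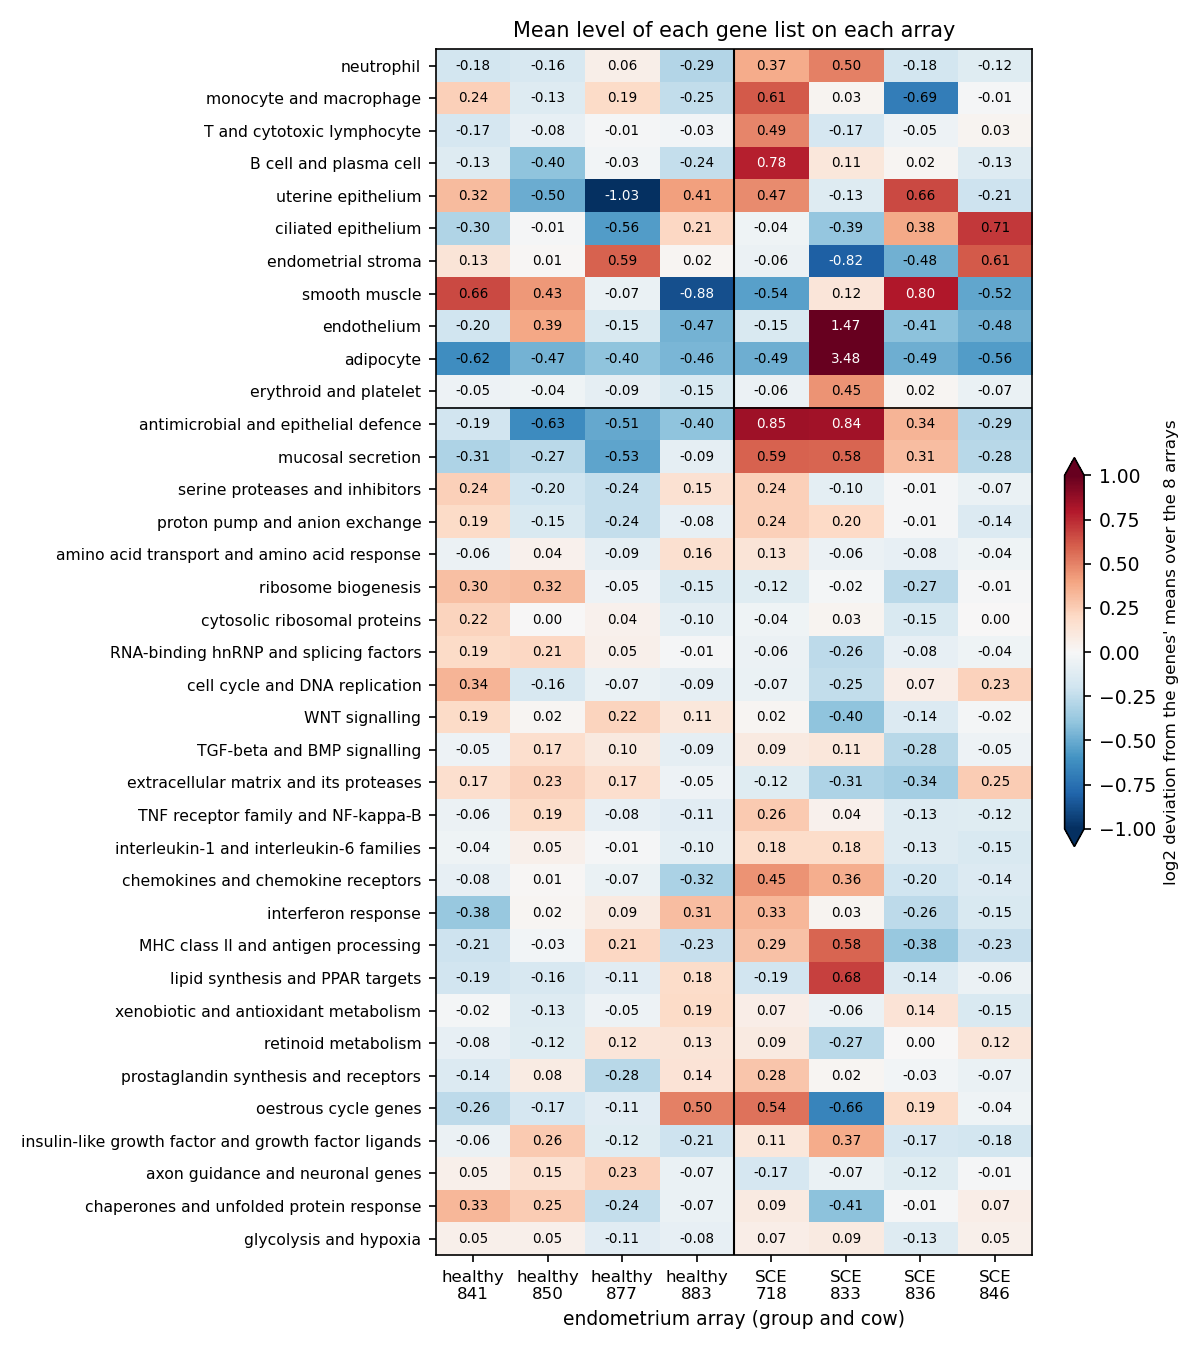
Mean deviation of each of 37 gene lists (rows, cell type markers above the line, pathways below) on each endometrium array (columns, healthy cows left), in log2 units from the genes' means over the 8 arrays. Colours end at 1 above and 1 below 0, and the printed numbers give the values. The adipocyte list reads 3.48 and the endothelium list 1.47 in SCE cow 833, and the defence list reads 0.85, 0.84, 0.34 and -0.29 in the SCE cows.

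Genes of inflammatory cells gave a mixed picture. S100A8 read 7.19, 6.83, 7.23 and 6.31 in healthy and 8.16, 10.45, 7.36 and 8.01 in SCE cows, with no overlap and a difference of 1.60 ± 0.61. Cow 833 held the highest value, and without it the difference was 0.95. Its partner S100A9 differed by 0.57, or 0.17 without cow 833, and S100A12 by 1.1 ± 0.59, or 0.55 without cow 833 and -0.04 in the second slide row. The neutrophil chemoattractant CXCL8 differed by 0.89 ± 0.66, or 0.30 without cow 718, with 9.06 and 8.03 in SCE cows 718 and 833 and 6.04 and 6.0 in cows 836 and 846. The neutrophil receptors CXCR2 and CSF3R, which define the cell type, read 5.62 to 6.22 and 6.10 to 7.06 over all 8 arrays, with CXCR2 well above background on 1 array of each group. Over 18 measured neutrophil markers 15 were higher, and the median of 0.14 was 0.05 without cow 718. Monocyte and macrophage markers had a median of -0.02, which ran from -0.26 to 0.24 when 1 cow was left out and was 0.37 and -0.31 in the slide rows. T cell markers had a median of 0.18, and -0.02 without cow 718. BCL2A1, a survival protein of activated leukocytes, did not overlap, with 6.76 to 7.12 in healthy and 7.28 to 8.34 in SCE cows.

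Some plasma cell genes were high in single SCE cows. JCHAIN, which joins polymeric immunoglobulins, read 8.52, 9.31, 10.30 and 9.41 in healthy and 15.27, 10.36, 12.27 and 8.48 in SCE cows. Cow 718 was far above all others and cow 846 below every healthy cow, so the difference of 2.21 ± 1.28 did not exceed the spread (unadjusted limma TREAT p = 0.13, exact permutation p = 0.20), and without cow 718 it was 0.99. MZB1, a chaperone of antibody-secreting cells, was instead highest in cow 833 at 10.92, against 8.59 to 9.43 elsewhere, and its difference of 0.69 was 0.19 without that cow. Of 13 B and plasma cell markers 10 were higher, with a median of 0.41 and 0.21 without cow 833. The 3 lower ones included PRDM1 and XBP1, at -0.69 ± 0.62 and -0.06. PRDM1 read 10.88, 11.48, 11.86 and 10.91 in healthy and 11.94, 9.11, 9.78 and 11.52 in SCE cows. Chemokines and their receptors were higher in 23 of 34 cases with a median of 0.19, and 0.10 without cow 833. The lymphoid chemokine CCL19 read 6.53, 6.28, 6.45 and 6.34 against 7.87, 8.51, 7.11 and 6.33, where cows 718, 833 and 836 were above and cow 846 within the healthy range. CXCL17, a mucosal chemokine, was also higher in those 3 SCE cows but lowest of all in cow 846, with 6.83 to 6.91 in healthy cows and 7.66, 9.62, 8.29 and 6.44 in SCE cows. Without cow 833 CCL19 differed by 0.70 and CXCL17 by 0.59. The interferon response list had a median of 0.02, and its values in the 2 rows of the slide were 0.42 and -0.35.

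**Figure D3:**
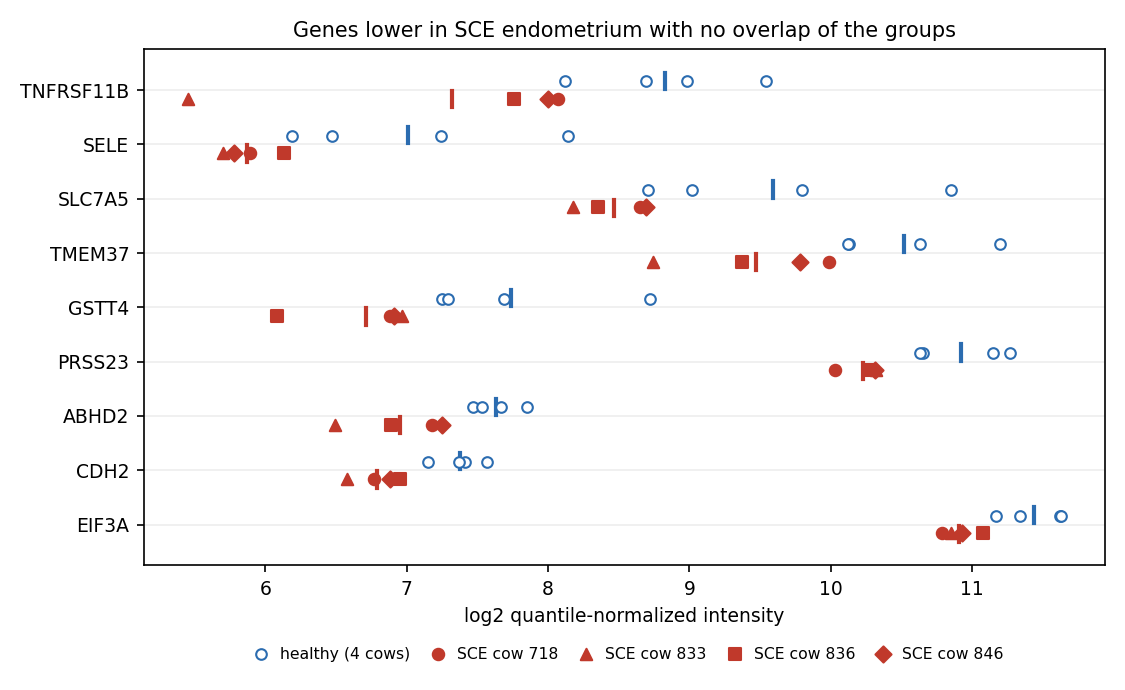
Log2 quantile-normalized intensity (horizontal axis) of the 9 genes that were lower in SCE without overlap and with an unadjusted TREAT p of 0.05 or less, 1 gene per row. Symbols are as in the plot of the higher genes. TNFRSF11B reads 5.45 in SCE cow 833 and 7.76 to 8.07 in the other SCE cows, and SELE reads 5.70 to 6.13 in SCE cows.

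Genes that were lower in SCE without overlap and past the unadjusted test numbered 9. TNFRSF11B (osteoprotegerin), a soluble decoy receptor for the osteoclast factor RANKL, read 8.98, 9.54, 8.69 and 8.12 in healthy and 8.07, 5.45, 7.76 and 8.00 in SCE cows. Cow 833 set much of its difference of -1.51 ± 0.60, which was -0.89 without that cow. SELE (E-selectin), the endothelial adhesion molecule that slows leukocytes, read 6.47, 8.14, 6.19 and 7.24 against 5.89, 5.70, 6.13 and 5.78. It was well above background in 3 of 4 healthy and in 0 of 4 SCE arrays. Its mean was at least 2.18-fold lower in SCE, taking the lowest measurable signal of each array as the bound. This bound leaves out the spread between cows. The measured difference of -1.14 ± 0.39 ran from -1.41 to -0.76 when 1 cow was left out. Of the 16 endothelial markers, which include SELE, 14 were higher, but without cow 833 only 2 were and the list median went from 0.22 to -0.19.

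SLC7A5, the LAT1 transporter of large neutral amino acids, read 10.85, 8.71, 9.80 and 9.02 in healthy and 8.65, 8.18, 8.35 and 8.69 in SCE cows. The SCE values lay close together, and the highest of them was just below the lowest healthy one. The difference of -1.13 was -0.71 without healthy cow 841. The 3 probes are shown because they differed in the size of the difference.
SLC7A5, chr18:12563377-12563436, minus strand, difference -1.96: gctttgggatggggagttttgtgttttgtt
SLC7A5, chr18:12564015-12564074, minus strand, difference -1.31: tttgagactgttggggcctcagttttcttg
SLC7A5, chr18:12570135-12570194, minus strand, difference -0.11: ttatcatctcgctcccgatcgtcaccctgg
The probe with the smallest difference had a mean of 6.38 in SCE and 6.49 in healthy cows and was well above background on only 2 and 3 arrays. Of the 33 genes of amino acid transport and response, 14 had a positive and 19 a negative difference around a median of -0.10, so the list as a whole lay near all genes. SLC3A2, the heavy chain that partners SLC7A5, differed by -0.26.

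The adhesion protein CDH2 (N-cadherin), a mesenchymal and neuronal cadherin, read 7.57, 7.15, 7.41 and 7.37 in healthy and 6.77, 6.58, 6.95 and 6.88 in SCE cows, a difference of -0.58 ± 0.13. Among its 4 probes, those well above background on every array gave -0.99 and -0.94, and those never above it gave -0.24 and -0.16. EIF3A, the largest subunit of a translation initiation complex, read 11.62, 11.34, 11.17 and 11.63 against 10.79, 10.85, 11.08 and 10.93. All 5 EIF3A probes were lower, from -0.68 to -0.44, and the difference was -0.51 without cow 833. The secreted protease PRSS23 differed by -0.69 ± 0.18, the lipid hydrolase ABHD2 by -0.68 ± 0.18, the channel-related membrane protein TMEM37 by -1.05 ± 0.33 and the glutathione transferase GSTT4 by -1.03 ± 0.35. GSTT4 was unlike the others in that SCE cow 836 was lowest, at 6.08, with the other SCE cows at 6.88 to 6.97.

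RNA-binding hnRNP proteins and splicing factors, which package and splice nascent transcripts, were lower in SCE in 33 of 36 cases by small amounts. The median difference was -0.20, and 7 of the 36 genes had no overlap in the lower direction, beside 0.774% of all gene names, although 0 passed the unadjusted test. This list, too, was written with earlier results of these data known, so the comparison with all gene names is no test of it. HNRNPA1, an abundant splicing repressor, read 12.86, 12.26, 12.59 and 12.24 in healthy and 11.89, 12.12, 11.98 and 12.13 in SCE cows. MATR3, a nuclear matrix protein, read 11.39, 11.37, 11.28 and 11.12 against 10.94, 10.79, 10.96 and 11.04. HNRNPU, which binds chromatin and RNA, read 10.60, 10.70, 10.57 and 10.33 against 10.31, 10.26, 10.19 and 10.12. In these genes the SCE values were tight. They are among the 7 without overlap, so each SCE value lies below every healthy one by definition. For HNRNPU the highest SCE value, 10.31, was only just below the lowest healthy one, 10.33. Among the other genes without overlap were TRA2A and RBM4B, at -0.41 and -0.40. Without cow 833 the median was -0.14 with 7 genes without overlap, and without cow 846 it was -0.26 with 11. Separation is easier with fewer cows, and over all gene names 551 and 941 had no overlap in the lower direction in these cases. Within the rows of the slide the medians were -0.37 and -0.08.

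**Figure D4:**
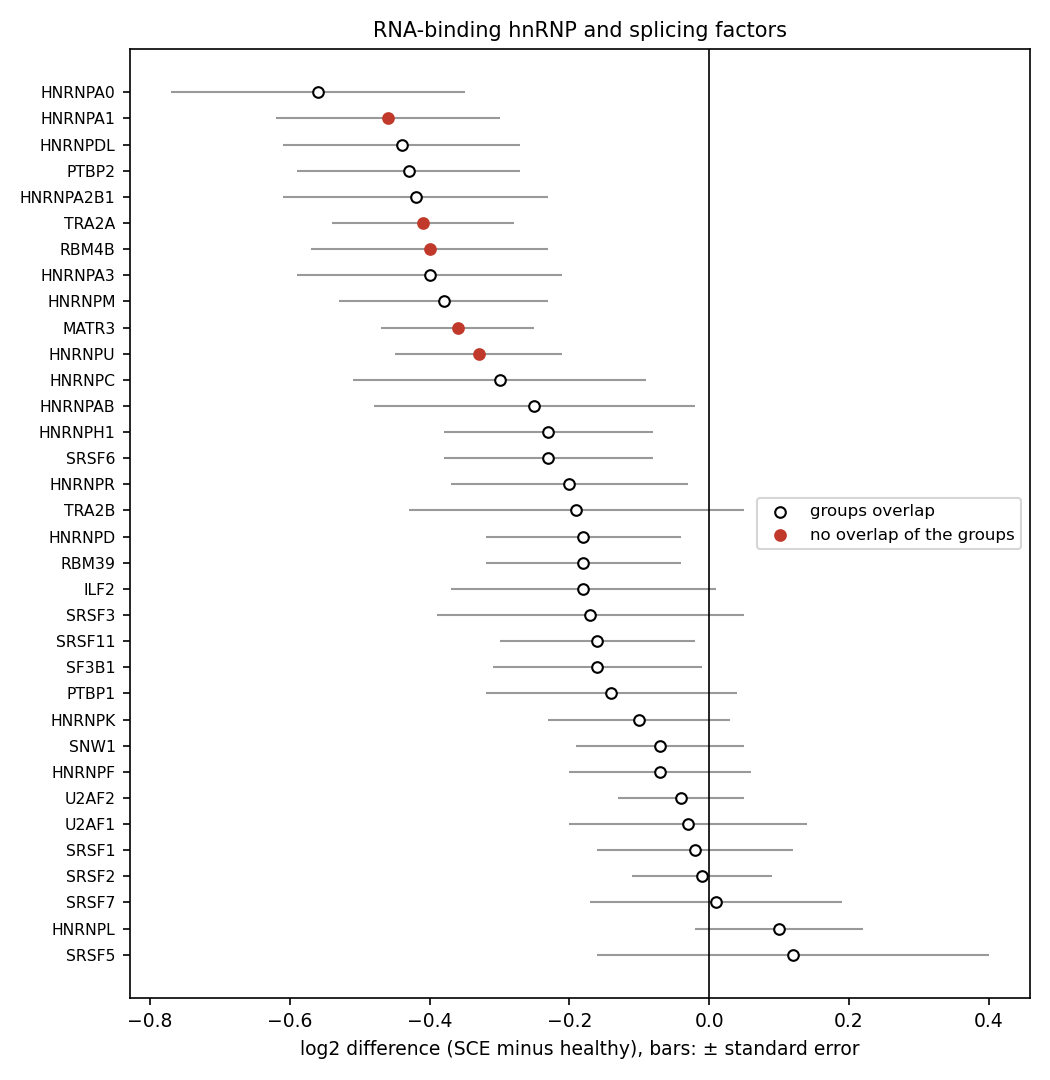
Log2 difference, SCE minus healthy (horizontal axis), of 34 of the RNA-binding hnRNP and splicing genes, 1 per row, with bars of 1 standard error on each side. Filled points are genes whose groups do not overlap and open points those that do. All but 3 points lie left of 0, and 5 are filled.

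Ribosome biogenesis genes, which build ribosomes in the nucleolus, were lower in 25 of 28 cases with a median of -0.24, and in 27 of 28 without cow 833. Without cow 836 the median was -0.15. NPM1, a nucleolar chaperone, differed by -0.41 ± 0.17, DKC1, the pseudouridine synthase of small nucleolar RNPs, by -0.40 ± 0.16, and NOL8, which did not overlap, by -0.36 ± 0.11. The medians within the slide rows were -0.41 and -0.05. The mean deviation of the list was 0.30 and 0.32 in healthy cows 841 and 850. In healthy cows 877 and 883 it was -0.05 and -0.15, inside the SCE range of -0.27 to -0.01. Cytosolic ribosomal proteins were lower in 47 of 59 cases by a median of only -0.08, and this direction turned to 0.05 with the processed signal scaled to the 75th percentile, where the median of all genes was also 0.05. Chaperones were lower in 23 of 34 cases (median -0.18), but the slide rows gave -0.52 and 0.16, and without cow 833 or healthy cow 841 it was -0.05.

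Stromal and matrix genes were mostly lower in SCE endometrium, and single cows set much of the size. SCE cows 833 and 836 had the lowest mean deviations, -0.82 and -0.48 for the stromal and -0.31 and -0.34 for the matrix list. SCE cow 846 instead had the highest of all 8 arrays, 0.61 and 0.25. Of 16 stromal markers 14 were lower with a median of -0.43, which was -0.15 without cow 833, -0.21 without healthy cow 877 and -0.68 without cow 846. HOXA10 differed by -1.39 ± 0.89, or -0.54 without cow 833, and the surface protein THY1 by -1.0 ± 0.49, or -0.64 without cow 836, both with overlap. The mesenchymal transcription factor TCF21 ran the other way, with 9.53, 7.51, 8.66 and 8.36 in healthy and 9.50, 10.95, 9.61 and 9.79 in SCE cows, a difference of 1.45 ± 0.46 (unadjusted limma TREAT p = 0.019, exact permutation p = 0.057). Of 38 extracellular matrix genes 25 were lower (median -0.31), and 4 passed the unadjusted test in that direction, beside 0.158% of all gene names. They were ADAMTSL2, a matrix protein that binds fibrillin, and the collagens COL4A5, COL9A3 and COL11A1. The matrix list was written with earlier results of these data known, so the comparison with all gene names is no test of it. ADAMTSL2 read 9.89, 9.75, 9.23 and 9.61 against 8.74, 8.55, 8.21 and 9.28, with cow 846 as the only SCE cow inside the healthy range. Without cow 833, 1 matrix gene passed and the median was -0.23, and without cow 846 there were 6 and it was -0.53. Without cow 718, 836 or healthy cow 841 it was -0.19, -0.18 and -0.15. Tenascin TNC differed by -1.53 ± 0.77 with overlap.

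**Figure D5:**
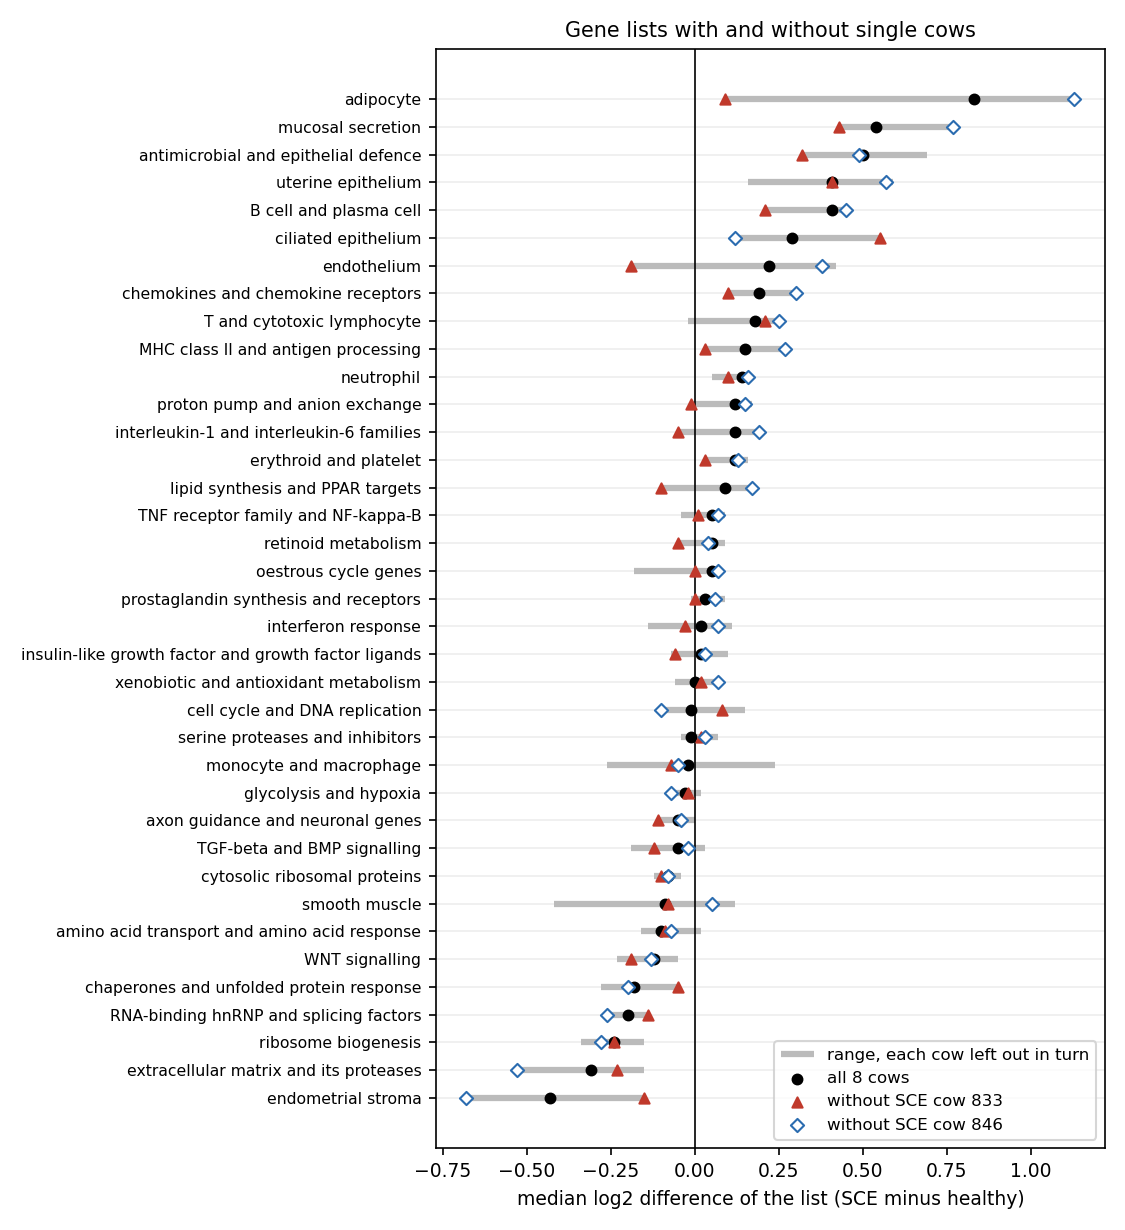
Median log2 difference, SCE minus healthy (horizontal axis), of each of 37 gene lists with all 8 cows (black points), without SCE cow 833 (triangles) and without SCE cow 846 (diamonds). Grey bars span the medians when each of the 8 cows was left out in turn. The adipocyte median moves from 0.83 to 0.09 and the endothelium median from 0.22 to -0.19 without cow 833, whereas the mucosal, defence, matrix and RNA-binding medians keep their sides.

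Among secreted signals, a few single genes had large but overlapping differences. The neuropeptide NPY read 11.99, 11.79, 11.41 and 9.40 in healthy and 8.05, 9.04, 8.24 and 10.21 in SCE cows. Healthy cow 883 lay among the SCE cows, and the difference was -2.26 ± 0.66 (unadjusted limma TREAT p = 0.01, exact permutation p = 0.057), -2.32 without cow 833 and -2.70 without cow 846. FGF18, a fibroblast growth factor, read 6.57, 7.79, 6.61 and 6.86 against 8.84, 9.10, 7.91 and 7.72, where a single healthy cow, 850, exceeded the lowest SCE value. Its difference was 1.43 ± 0.39 (unadjusted limma TREAT p = 0.0091, exact permutation p = 0.057). SFRP1, a secreted WNT inhibitor, differed by -2.27 ± 1.03 and WNT2 by -1.42 ± 0.93, and both were lowest in cow 833 at 8.68 and 8.82. Without that cow SFRP1 gave -1.38 and WNT2 -0.59. The 35 WNT pathway genes had 11 higher and 24 lower members and a median of -0.12. Among oestrous cycle genes, TDGF1, an EGF-CFC family ligand, had the largest difference, 1.6, but spanned 7.73 to 16.07 in healthy and 10.83 to 16.95 in SCE cows. CYP19A1, the aromatase that forms oestrogens, had no overlap but a difference of only 0.15, and it exceeded background clearly in 2 SCE cows and 1 healthy cow. The list median was 0.05 and the progesterone receptor PGR differed by -0.86, or -0.37 without cow 833 and 0.39 in the second slide row.

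Lists that lay near all genes in the comparison had medians between -0.05 and 0.12: serine proteases and their inhibitors (-0.01), proton pump and anion exchange (0.12), cell cycle (-0.01), TGF-beta and BMP signalling (-0.05), the TNF receptor family and NF-kappa-B (0.05), interleukin-1 and interleukin-6 families (0.12), prostaglandins (0.03), retinoids (0.05), growth factors (0.02), axon guidance (-0.05), glycolysis and hypoxia (-0.03), erythroid and platelet genes (0.12) and xenobiotic metabolism (0). Smooth muscle markers gave -0.09, but -0.83 and 0.50 in the slide rows and -0.42 to 0.12 when 1 cow was left out. MHC class II genes gave 0.15, and 0.03 without cow 833. Lipid synthesis and PPAR target genes gave 0.09, and -0.10 without cow 833, in which PPARG, the regulator of fat cell formation, read 13.55 against 7.60 to 9.80 elsewhere. Within lipid metabolism PHYH nevertheless kept its difference, at 0.59 without cow 833.

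The same contrast in WBC of these cows gave small differences for the leading endometrial genes. The 12 higher and 9 lower genes differed by -0.15 to 0.26 between SCE and healthy cows in WBC. They were picked for their difference in endometrium, so a smaller one in WBC is no test of a tissue effect. Some also read low in SCE and healthy WBC, such as KLK10 (5.57 and 5.58) and TNFRSF11B (5.77 and 5.79), where a difference may not show. Others read high, such as CRIP1 (13.49 and 13.58) and EIF3A (11.72 and 11.55). S100A8, at a mean of 14.16 in SCE and 13.93 in healthy WBC, was far more intense in WBC than in endometrium. The difference between the tissues' SCE effects passed the adjusted limma TREAT test for 0 of 26526 gene names and the unadjusted one for 102 (0.385%).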

How the data were processed

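RNA of 16 samples was hybridised to Agilent one-colour bovine arrays, and the authors deposited the scanner output of Agilent Feature Extraction 10.10.1.1, in which each spot has an intensity, together with a table of their normalized intensity values. The median spot signal of 52689 non-control spots was used without background subtraction, outlier spots (220 to 465 per endometrium array) were left out, and values were taken to log2 and quantile-normalized over the 16 arrays. Spots were averaged per probe and probes per gene name (46615 probes, 26554 gene names, of which 12186 had 2 or more probes). Of these, 53% were symbols in RefSeq, 6.7% were named through an accession and 40.1% had no match. Between 64.7% and 79.8% of spots were well above background. The number of arrays limits the precision.

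The endometrium groups were compared with lmFit and treat of limma 3.58.1 in R 4.3.3 at a fold of 1.2, two-sided, with Benjamini-Hochberg adjustment over all gene names. Exact permutation over the 70 splits of 8 cows cannot give a two-sided p below 0.029. The fit was tested on simulated data. All 8 endometrium arrays were on 1 slide, in rows of 4 with 2 arrays of each group. The same cows gave both tissues, so cow numbers pair the tissues per the labels, and the correlation of their deviations ranged from -0.22 to 0.10.

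Genes were named by rule. The first were up to 12 with the largest positive and 12 with the largest negative difference among symbols with an unadjusted p of 0.05 or less and no overlap, without complement, LTF, SAA and TFF3. From each of 37 lists, members past the unadjusted test were added, up to 4, or else the largest detected differences. Further genes were picked after their values were seen, and a few genes are not reported here. The members and lists were chosen with earlier results of these data known. Alternatives were other normalizations, filters, thresholds and fits, and leaving out each cow. The authors' table was matched by row to the scanner spots (rank correlation 1 on each array) and used as an alternative. Figures were drawn with matplotlib 3.10.9.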

Additional observations from a re-analysis of the deposited data

Results flagged for a closer look

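In 15 of 250 groups of 4 arrays tested, 6%, 1 cow lay far from the other 3 by Dixon's test of the gap to the nearest of them, where chance gives about 1 in 20. SCE cow 833 accounts for 8 of them. It was highest for the adipocyte list (3.48, next -0.49), the endothelium list (1.47, next -0.15), the lipid synthesis list (0.68, next -0.06), the lipid droplet protein PLIN1 (11.0, next 6.58), THRSP, a regulator of fat synthesis (9.96, next 6.41), and the cytokine IL18 (10.46, next 9.20). It was lowest for TNFRSF11B (5.45, next 7.76) and the mitochondrial chaperone HSPA9 (9.63, next 10.35).

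SCE cow 718 was highest for the prostaglandin synthase PTGS2 (9.67, next 7.01) and lowest for PRSS23 (10.03, next 10.28), and SCE cow 836 was lowest for GSTT4 (6.08, next 6.88). Among healthy cows, 841 was highest for NDP, a ligand of Frizzled receptors (12.37, next 11.01). Healthy cow 850 was highest for KLF4 (10.7, next 9.51) and for the list of the TNF receptor family and NF-kappa-B (0.19, next -0.06), and healthy cow 877 was lowest for HSPA9 (9.95, next 10.83).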

How the results depend on the processing

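Under every alternative run in endometrium, 0 genes passed the adjusted test.

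The counts of 59 higher and 42 lower genes past the unadjusted limma TREAT test, and of 191 and 204 without overlap, were within 1.5 times these values under the other settings except as follows. With the processed signal scaled to the 75th percentile, 142 were higher and 71 lower, and 114 were higher without overlap. With normexp background correction 26 were lower. When probes had to exceed background throughout 1 group, 88 were higher without overlap. At a TREAT threshold of 1 there were 237 higher and 264 lower genes, and at 1.1-fold 124 and 111. The adipocyte marker mean as a covariate gave 89 higher, and 1 fit of all 16 arrays gave 118 higher and 140 lower. Leaving out each cow in turn, the counts ran from 38 (without healthy cow 877) to 162 higher and from 28 (without SCE cow 833) to 267 lower, and without overlap from 348 to 576 higher and from 399 to 941 lower, the highest of each without SCE cow 846.

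List medians moved by more than the spread between cows in these cases. With the processed signal, cytosolic ribosomal proteins gave 0.05, chemokines 0.49 and xenobiotic metabolism 0.15, and with the filter on dim probes axon guidance gave -0.21. With the adipocyte covariate, the interleukin list gave -0.04. Within slide row 1, smooth muscle gave -0.83, mucosal secretion 0.93, amino acid transport 0.07, RNA-binding proteins -0.37, cell cycle -0.32, WNT signalling -0.35, interferon response 0.42 and chaperones -0.52. Within slide row 2, ciliated epithelium gave 0.77, ribosome biogenesis -0.05, RNA-binding proteins -0.08, cell cycle 0.24, interleukins -0.04, interferon response -0.35 and chaperones 0.16. Leaving out 1 cow moved the interleukin list between -0.05 (without SCE cow 833) and 0.19, the amino acid list between -0.16 and 0.02 (without SCE cow 836) and the matrix list between -0.53 (without SCE cow 846) and -0.15.

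Single genes that changed direction were ones whose groups overlapped. Within slide row 1 these were VSIG4 (0.22), CAPS (-0.27) and IFI27 (0.22), and within row 2 S100A12 (-0.04), DES (0.60), CMPK2 (-0.03), PGR (0.39) and HSPA9 (0.05). DES gave 0.08 with its brightest probe and FABP5 -0.01 with the adipocyte covariate. Leaving out 1 cow, DES ran from -0.87 to 0.01 (without healthy cow 841), FABP5 from -0.06 (without SCE cow 833) to 2.44, CCNB1 from -0.28 (without healthy cow 850; -0.21 without SCE cow 836) to 1.60, and VSIG4 up to 0.09 (without SCE cow 836). The causes were not tested.

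No paired analysis was possible because the SCE and healthy groups share no cow within endometrium. For the difference between the tissues, where the same cows gave both samples, the fit with cow as a replicate block gave 0 adjusted and 141 unadjusted calls, against 102 without it. Leaving out 1 cow gave 73 to 427 unadjusted calls, with 312 without cow 833, 427 without cow 846 and 211 without cow 883, and 2 adjusted calls without cow 846.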

Other observations

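Immediate-early genes, which cells switch on within minutes of a stimulus, stood out in 1 SCE cow. This set of 10 genes was chosen after its values were seen. Its mean lay 3.26 above its average over the 8 arrays in SCE cow 718 and 1.06 above it in healthy cow 850, and from -1.32 to 0.41 in the others. FOS read 15.15 in cow 718 and 8.00 to 11.03 elsewhere, and the stress-response factor ATF3 read 15.50 against 8.53 to 12.59. All 10 genes were highest in cow 718, and the other SCE cows lay within or near the healthy range for most of them, so that the SCE minus healthy difference of FOS was 1.32 with an unadjusted limma TREAT p of 0.36. KLF4, counted among the mucosal genes above, belongs to this set, at 13.49 in cow 718 against 9.07 to 11.38 elsewhere.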
